A study of Mus musculus with 16 samples.

Results

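The genes that build fatty acids and store them as triglyceride were followed in brown and white fat of mice lacking the glucocorticoid receptor in adipose tissue and of control mice. The list held 37 genes, ordered by pathway step. A gene entered through the array probes whose transcript accession named it. Of the 37, 36 had a probe (58 probes in all), and 35 had a probe that passed the filter on dim signals, among 25107 genes and unnamed probes tested on the array. Scd4 had a probe that was well above background on 0 arrays, and Pck1, which makes glycerol for triglyceride from smaller precursors (glyceroneogenesis), had no matched probe. Of the 35, 34 were well above background on all 16 arrays; Scd3 was the exception.

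The 4 groups, from female mice, were brown adipose tissue (BAT) of knockouts, BAT of controls, white adipose tissue (WAT) of knockouts and WAT of controls, with 4 arrays each. The knockouts are labelled as lacking the receptor, encoded by Nr3c1, in adipose tissue specifically, and the controls as wild-type. The Cre driver, strain, age, feeding state and white depot are not given in the sources used here. Between the arrays of WAT knockouts 1 and 2 the log2 difference had an SD of 0.0839, within the 0.0877 that spot noise alone gives and below the 0.208 or more of the other 119 pairs. The mean of both arrays was used as 1 sample, called WAT knockout 1-2. This left n = 3 WAT knockouts and n = 4 in each other group.

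New fatty acids are built in the cytosol. Citrate leaves the mitochondrion and is split to acetyl-CoA, acetyl-CoA is carboxylated to malonyl-CoA, and fatty acid synthase joins these units with NADPH as the reductant. Desaturases and elongases then shape the chain, and acyltransferases place the chains on glycerol 3-phosphate to form triglyceride. The transcription factors SREBP-1 and ChREBP drive many of these genes in response to insulin and to sugar. In white fat the product is stored, whereas brown fat both makes and burns it. Glucocorticoids are known to act on both the storage and the release of fat.

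A level is the log2 signal of a gene's brightest probe minus the 75th percentile of its array, and a difference is a difference of such levels, knockout minus control or BAT minus WAT, given with its standard error. Levels of different genes come from different probes and are not set against each other. The tissue labels matched the brown fat markers: the 10 brown adipocyte markers passed the threshold as higher in BAT than in WAT in both genotypes, and Ucp1 was between 8.21 and 8.99 in BAT and between -5.23 and -1.10 in WAT. Nr3c1 was 1.45 ± 0.21 in BAT knockouts and 2.49 ± 0.16 in BAT controls (SD, n = 4 each), which is 48.8% of control, and 1.53 ± 0.15 (n = 3) in WAT knockouts and 2.19 ± 0.28 (n = 4) in WAT controls, which is 63.4%. Knockouts and controls did not overlap in either depot (exact permutation test, two-sided, p = 0.0286 each, the smallest possible here), although neither difference passed the test over all features (limma adjusted p = 0.0814 in BAT and 0.21 in WAT). The deleted part of the gene and the probe's place relative to it are not given in the sources used here. The 75th percentile of the signal ranged between 298 and 1035 over the arrays and was lowest in BAT knockouts 1 and 2. All 4 slides carried every group once, always at the same place on the slide, so position and group cannot be told apart. Samples of WAT stood apart in cell content. The 9 B cell markers had median levels, relative to each gene's mean, of 5.13 and 4.87 in WAT knockouts 1-2 and 3 and -1.26 in WAT knockout 4, and of -0.05, -0.55, 3.74 and 3.07 in the 4 WAT controls, and all 9 were well above background on every WAT array. The 10 intestinal markers were at 6.48 and 5.29 in WAT controls 1 and 4, against at most -0.07 in the other WAT samples of either genotype. In bulk tissue, fewer adipocytes and less RNA per adipocyte cannot be told apart.

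Promoters of 5 members are shown because the members are regulators of the pathway or were lower in all BAT knockouts, and because they carry motifs that the pathway's factors are known to bind. Each sequence is the 250 bases before a RefSeq start (GRCm38.p6), on the gene's strand, and capitals mark the motifs. Where a gene had several starts, the window with the most marked motifs was taken. Slc25a1, the mitochondrial citrate carrier, was read from chr16:17928220-17928469 (minus strand) and had an E-box (CACGTG, the site of ChREBP, SREBP-1 and USF factors) 239 bases and an NF-Y box (ATTGG) 125 bases before the start. Acss2, which makes acetyl-CoA from acetate, had an NF-Y box 73 bases before the start in chr2:155517793-155518042 (plus strand). Pgd, an NADPH-producing enzyme of the pentose phosphate pathway, had the glucocorticoid receptor hexamer AGAACA at 216 and 183 bases, in both copies of a directly repeated stretch, and NF-Y boxes at 46 (as CCAAT) and 9 bases before the start in chr4:149166706-149166955 (minus strand). Gpam, the mitochondrial acyltransferase that starts triglyceride assembly, had a sterol response element core (TCACCCC) at 165 bases and an NF-Y box at 74 bases in chr19:55127239-55127488 (minus strand). Mlxipl, which encodes ChREBP, had an E-box 98 bases and an NF-Y box 173 bases before the start in chr5:135089640-135089889 (plus strand).
Slc25a1: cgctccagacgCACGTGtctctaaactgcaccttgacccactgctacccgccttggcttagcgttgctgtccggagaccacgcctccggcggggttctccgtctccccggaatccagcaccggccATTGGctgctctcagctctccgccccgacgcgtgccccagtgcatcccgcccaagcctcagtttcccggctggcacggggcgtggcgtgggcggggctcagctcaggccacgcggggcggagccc
Acss2: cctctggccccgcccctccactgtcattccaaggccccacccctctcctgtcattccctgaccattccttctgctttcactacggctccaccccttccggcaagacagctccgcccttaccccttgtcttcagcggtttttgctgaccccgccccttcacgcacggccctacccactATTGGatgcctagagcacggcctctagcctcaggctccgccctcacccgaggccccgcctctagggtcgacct
Pgd: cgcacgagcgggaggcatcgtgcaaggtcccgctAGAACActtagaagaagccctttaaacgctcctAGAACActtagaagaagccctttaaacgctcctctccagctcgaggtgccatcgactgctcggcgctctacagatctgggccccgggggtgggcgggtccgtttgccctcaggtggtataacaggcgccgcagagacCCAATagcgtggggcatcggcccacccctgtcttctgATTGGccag
Gpam: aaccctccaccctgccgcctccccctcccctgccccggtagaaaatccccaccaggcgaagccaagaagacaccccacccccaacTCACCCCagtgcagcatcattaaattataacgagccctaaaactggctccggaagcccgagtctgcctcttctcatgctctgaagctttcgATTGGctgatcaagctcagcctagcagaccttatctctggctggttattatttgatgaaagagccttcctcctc
Mlxipl: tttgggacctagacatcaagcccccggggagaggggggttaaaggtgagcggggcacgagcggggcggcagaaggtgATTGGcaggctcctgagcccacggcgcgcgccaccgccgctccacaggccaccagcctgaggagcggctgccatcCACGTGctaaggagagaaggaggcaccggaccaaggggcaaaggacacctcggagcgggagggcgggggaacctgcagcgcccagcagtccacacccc
No marked motif overlapped another. Over windows that also hold the 50 bases after the start, searched on both strands, 30 members could be compared with 27025 genes. The E-box was in 5 of 30 members (16.7%, against 8.09% of all genes), the sterol response element core in 3 (10%, against 5.61%) and the NF-Y box in 17 (56.7%, against 41.1%). The Sp1 box GGGCGG was in 18 (60%, against 38.2%), the nuclear receptor hexamer AGGTCA in 7 (23.3%, against 18.1%) and AGAACA in 6 (20%, against 21.3%). These are matches of letters in short windows and say nothing of binding.

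In brown fat, most of the pathway was lower in knockouts than in controls, by modest amounts and without passing the test over all features. The members that supply acetyl-CoA and NADPH led this pattern: 7 of 8 were lower in every knockout than in any control, at 55.6% to 73.3% of the control level. Over the whole list 24 of 35 members (68.6%) were lower, against 39.8% of all features. In 16 members (45.7%) all 4 knockouts lay below all 4 controls, against 8.62% of all features; only Agpat1 lay wholly above (2.86% of members, against 9.34% of all features). The median member difference was -0.31, beside 0.10 over all features. No member passed the limma threshold of adjusted p 0.05, which 0.0159% of all features did. At an unadjusted p under 0.05, 2 members were lower (5.71%, against 5.5% of all features) and 1 was higher (2.86%, against 7.64%).

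**Figure D1:**
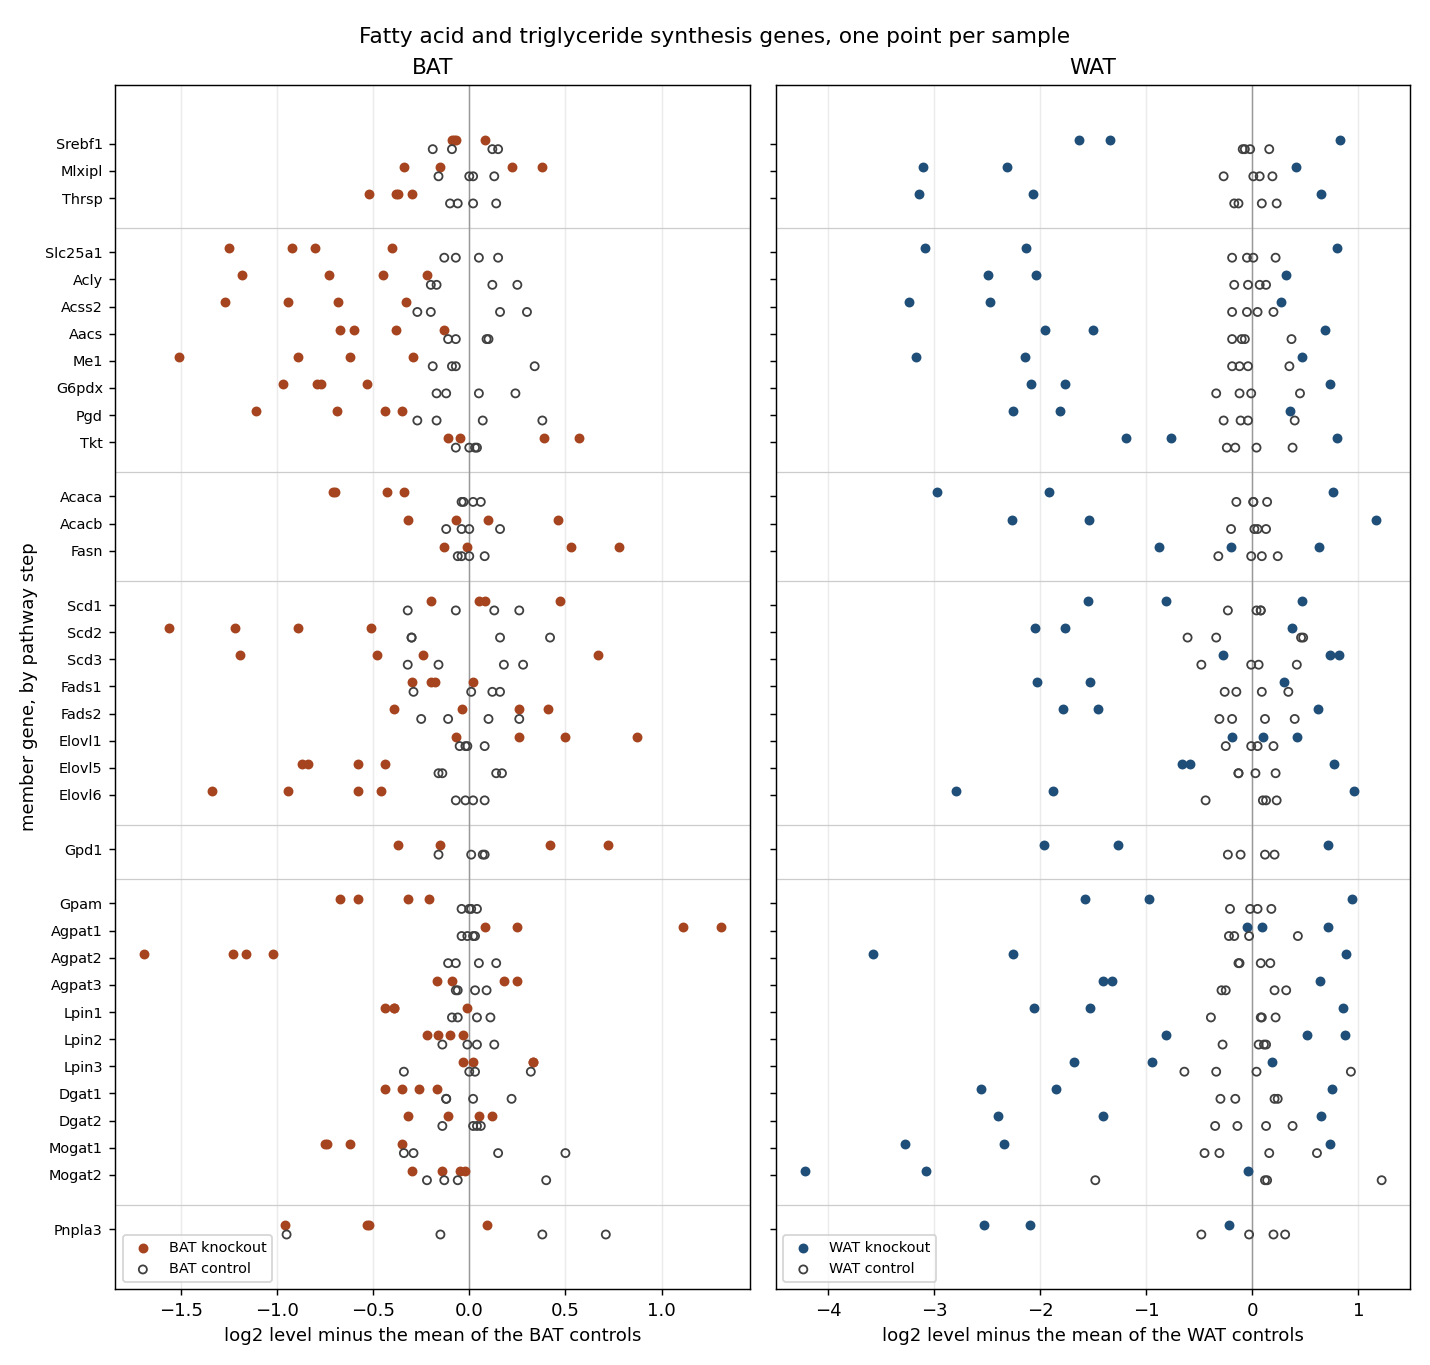
Level of each of the 35 members in every sample minus the mean of its depot's controls (log2), grouped by pathway step, with BAT in the left panel and WAT in the right; points are single samples. In BAT the 4 knockouts of 16 members lie below all 4 controls, whereas in WAT knockouts 1-2 and 3 lie low and knockout 4 lies at or above the controls for 28 members.

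Of the regulators, 1 of 3 was set apart in BAT. Srebf1, which encodes SREBP-1, was 6.38, 6.53, 6.36 and 6.37 in BAT knockouts and 6.60, 6.26, 6.57 and 6.36 in BAT controls (-0.04 ± 0.39, adjusted p = 0.985). Mlxipl was 6.12, 6.28, 5.75 and 5.56 in BAT knockouts and 5.90, 6.03, 5.92 and 5.74 in BAT controls (0.03 ± 0.53, adjusted p = 0.993). Knockouts and controls overlapped for both, and the knockouts of Mlxipl spanned the whole range of its controls. Thrsp, which encodes the lipogenic protein Spot 14, was 7.96, 8.18, 8.11 and 8.10 in BAT knockouts and 8.38, 8.62, 8.42 and 8.50 in BAT controls. All 4 knockouts were below the controls for Thrsp, at 76% of the control level (-0.40 ± 0.55, adjusted p = 0.839).

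Acetyl-CoA and NADPH supply was the step with the most members set apart. Slc25a1 was 5.13, 5.58, 5.98 and 5.46 in BAT knockouts and 6.31, 6.53, 6.25 and 6.43 in BAT controls, or 55.6% of control (-0.85 ± 0.58). Acly, the ATP-citrate lyase that splits citrate in the cytosol, was 5.72, 5.95, 5.44 and 4.99 in BAT knockouts and 6.29, 6.42, 5.97 and 6.0 in BAT controls (64.1%, -0.64 ± 0.45). Acss2 was 5.15, 5.48, 6.09 and 5.74 in BAT knockouts and 6.58, 6.72, 6.22 and 6.15 in BAT controls (57.5%, -0.80 ± 0.54). For these genes every knockout was below every control, with knockout 4 lowest for Acly and knockout 1 lowest for Acss2 and Slc25a1. Aacs, which activates acetoacetate for lipid synthesis, was 5.79, 6.01, 6.26 and 5.72 in BAT knockouts and 6.48, 6.32, 6.28 and 6.49 in BAT controls (73.3%, -0.45 ± 0.42); the highest knockout lay 0.02 below the lowest control. Me1, the cytosolic malic enzyme and a source of NADPH, was 5.02, 5.64, 6.24 and 5.91 in BAT knockouts and 6.44, 6.87, 6.34 and 6.46 in BAT controls (56.5%, -0.82 ± 0.56). G6pdx, the first enzyme of the pentose phosphate pathway, was 5.45, 5.63, 5.89 and 5.65 in BAT knockouts and 6.47, 6.66, 6.25 and 6.30 in BAT controls (58.7%, -0.77 ± 0.46). All NADPH-producing members on the list, these and Pgd, were lower in every knockout. Pgd was 5.75, 6.0, 6.09 and 5.33 in BAT knockouts and 6.51, 6.82, 6.17 and 6.27 in BAT controls (63.7%, -0.65 ± 0.43). The dimmer Pgd probe gave -1.34, also without overlap. Tkt, the transketolase of the non-oxidative branch, was higher on average on its brightest probe, with 9.18, 9.0, 8.56 and 8.50 in BAT knockouts and 8.54, 8.64, 8.65 and 8.61 in BAT controls (0.20 ± 0.34); knockouts 1 and 2 were above all controls and knockout 4 below them. Its dimmer probe gave -0.34, also with overlap. Adjusted p-values in this step were between 0.504 (G6pdx) and 0.876 (Tkt).

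The enzymes of chain synthesis did not move together. Acaca, the cytosolic acetyl-CoA carboxylase, was 4.99, 5.26, 5.35 and 4.98 in BAT knockouts and 5.71, 5.75, 5.65 and 5.66 in BAT controls, so all knockouts were below all controls at 68.3% of the control level (-0.55 ± 0.54, adjusted p = 0.738). Its other 3 kept probes had differences of 0.37, -0.09 and -0.28, with overlapping groups, so the separation rests on the brightest probe. Acacb, the carboxylase of the mitochondrial surface, was 7.87, 7.51, 7.34 and 7.09 in BAT knockouts and 7.41, 7.29, 7.37 and 7.57 in BAT controls (0.05 ± 0.52, adjusted p = 0.987), with overlap. Fasn, the fatty acid synthase, was 10.09, 9.84, 9.18 and 9.30 in BAT knockouts and 9.25, 9.39, 9.31 and 9.27 in BAT controls (0.30 ± 0.29, adjusted p = 0.729), with knockouts 1 and 2 above all controls and knockout 3 below them. The brightest Fasn probe varied only 2.4-fold in signal over all arrays (153000 to 366000), whereas its dimmer probe varied 20.3-fold (3620 to 73400). On the dimmer probe Fasn was 6.46, 6.79, 6.73 and 6.47 in BAT knockouts and 6.98, 7.07, 6.80 and 6.89 in BAT controls, and all knockouts were below all controls (difference -0.32). The direction for Fasn therefore differed between its probes.

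Desaturases and elongases were split by gene. Scd2, a stearoyl-CoA desaturase, was 4.79, 5.12, 5.50 and 4.45 in BAT knockouts and 6.43, 6.17, 5.71 and 5.71 in BAT controls, which is 48.7% of control (-1.04 ± 0.46, adjusted p = 0.356), whereas its paralog Scd1 was 8.73, 8.34, 8.06 and 8.31 in BAT knockouts and 7.94, 8.52, 8.19 and 8.39 in BAT controls (0.10 ± 0.33). Knockouts of Scd2 were all below its controls, and those of Scd1 overlapped them. Scd3, near background on these arrays, was -4.49 ± 0.77 in BAT knockouts and -4.18 ± 0.28 in BAT controls (SD, n = 4 each). Elovl6, which extends palmitate, was 5.86, 6.26, 6.74 and 6.62 in BAT knockouts and 7.28, 7.22, 7.18 and 7.13 in BAT controls (56.2%, -0.83 ± 0.57). Elovl5, an elongase of polyunsaturated chains, was 3.64, 3.61, 4.04 and 3.90 in BAT knockouts and 4.34, 4.62, 4.32 and 4.65 in BAT controls (62.2%, -0.69 ± 0.27, adjusted p = 0.305), the smallest adjusted p of any member in BAT. Both elongases were lower in every knockout than in every control. Elovl1, which makes very long saturated chains, was 2.96, 2.59, 2.02 and 2.35 in BAT knockouts and 2.07, 2.04, 2.08 and 2.17 in BAT controls (0.39 ± 0.20, adjusted p = 0.447), with knockouts 1, 2 and 4 above all controls. The polyunsaturated fatty acid desaturases Fads1, with -0.38, -0.60, -0.70 and -0.58 in BAT knockouts and -0.39, -0.24, -0.69 and -0.28 in BAT controls (-0.17 ± 0.37), and Fads2, with -0.62, -0.77, -1.07 and -1.42 in BAT knockouts and -0.93, -0.77, -1.28 and -1.14 in BAT controls (0.06 ± 0.41), overlapped between the groups.

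On the way to triglyceride, the largest difference of any member in BAT, by brightest probes, was at Agpat2, the acyltransferase whose loss in humans causes generalized lipodystrophy. Agpat2 was 4.40, 4.86, 5.07 and 4.93 in BAT knockouts and 6.14, 6.23, 5.98 and 6.02 in BAT controls, or 41.2% of control (-1.28 ± 0.64, adjusted p = 0.414), and the highest knockout lay 0.91 below the lowest control. Its other kept probe gave -1.25, again without overlap. The paralogs went other ways. Agpat1 was 2.24, 2.04, 1.18 and 1.01 in BAT knockouts and 0.95, 0.92, 0.96 and 0.89 in BAT controls (0.69 ± 0.28, adjusted p = 0.313), with knockouts 1 and 2 well above knockouts 3 and 4 and all above the controls; its second probe (0.31) overlapped. Agpat3 was 7.02, 6.95, 6.60 and 6.68 in BAT knockouts and 6.71, 6.86, 6.70 and 6.80 in BAT controls (0.04 ± 0.36), with knockouts on both sides of the controls. Gpam was -0.49, -0.14, -0.03 and -0.40 in BAT knockouts and 0.19, 0.14, 0.22 and 0.18 in BAT controls (73.3%, -0.45 ± 0.39), and all knockouts were below 0 while all controls were above it. Gpd1, which makes glycerol 3-phosphate from glycolysis, was 9.55, 9.25, 8.46 and 8.68 in BAT knockouts and 8.67, 8.91, 8.90 and 8.84 in BAT controls (0.16 ± 0.43), whereas its dimmer probe was lower in every knockout (-0.88).

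Among the last steps Dgat1 and Mogat1 were set apart in BAT on their brightest probes. Lpin1, a phosphatidate phosphatase, was 4.45, 4.83, 4.45 and 4.40 in BAT knockouts and 4.95, 4.75, 4.88 and 4.78 in BAT controls (-0.31 ± 0.45, adjusted p = 0.85), with knockout 2 inside the range of the controls. Its other kept probes gave -0.45 without overlap and -0.35 with overlap. Its paralogs Lpin2 (-0.13 ± 0.28) and Lpin3 (0.16 ± 0.38) overlapped between groups. Dgat1, which adds the last acyl chain and is linked to re-esterification, was 3.93, 4.20, 4.11 and 4.02 in BAT knockouts and 4.25, 4.59, 4.25 and 4.39 in BAT controls (81.1%, -0.30 ± 0.50) and did not overlap. Dgat2, the other enzyme of this step, linked to newly made fatty acids, was 8.57, 8.50, 8.13 and 8.34 in BAT knockouts and 8.31, 8.49, 8.51 and 8.47 in BAT controls (-0.06 ± 0.46), with knockout 3 below all controls and knockout 1 above. The dimmer Dgat2 probes gave -0.43 and -0.71. On both, knockouts 1, 2 and 3 were below all controls and knockout 4 lay within their range. Mogat1, a monoacylglycerol acyltransferase, was 1.56, 1.43, 1.83 and 1.44 in BAT knockouts and 2.33, 2.68, 1.84 and 1.89 in BAT controls (65.3%, -0.62 ± 0.62); its highest knockout lay 0.01 below its lowest control. Its 2 other probes gave -0.82 and -1.0, both without overlap. Mogat2, known for fat absorption in the intestine, was -1.14, -1.05, -1.02 and -1.30 in BAT knockouts and -1.06, -0.60, -1.13 and -1.22 in BAT controls (-0.13 ± 0.71). Pnpla3, a lipid droplet protein with acyltransferase and lipase activity, was 3.45, 2.84, 2.83 and 2.40 in BAT knockouts and 3.21, 2.41, 4.07 and 3.74 in BAT controls (-0.48 ± 0.46). Both overlapped between the groups.

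**Figure D2:**
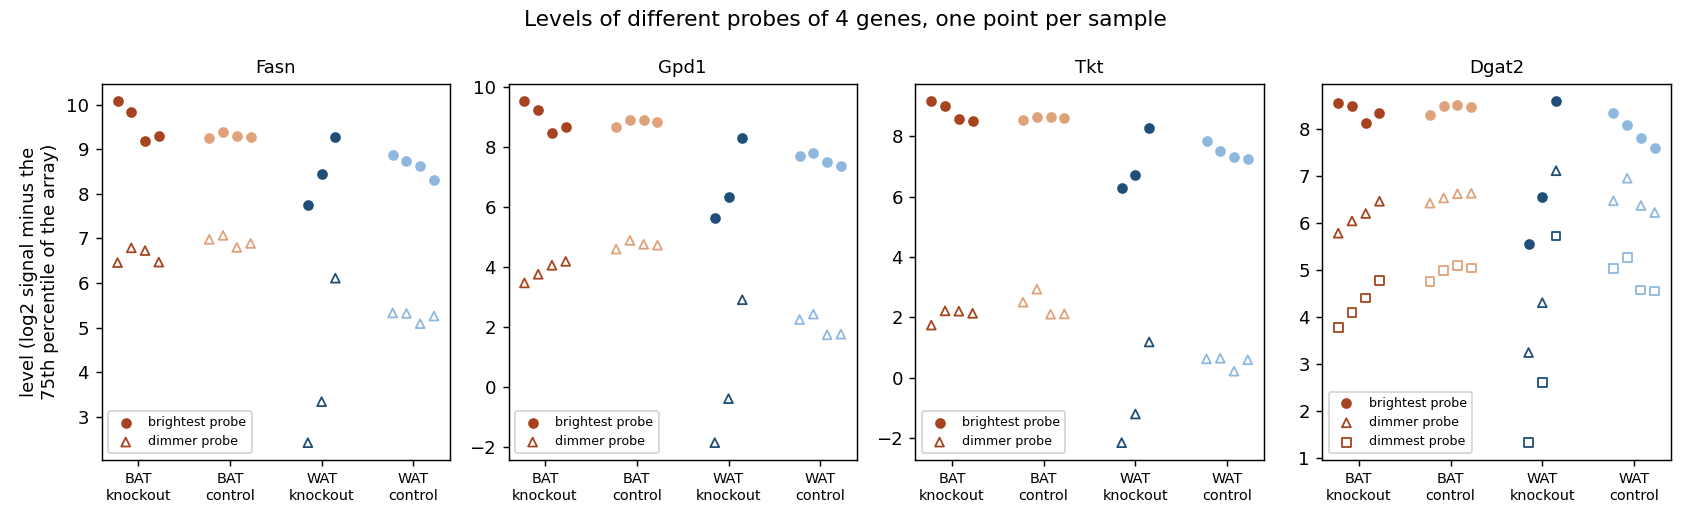
Level by sample (log2, signal minus the array's 75th percentile) of each kept probe of Fasn, Gpd1, Tkt and Dgat2, with knockouts left of controls in each depot. The brightest probe of each gene spans less than its dimmer probes; for Fasn in BAT the brightest probe overlaps between genotypes and the dimmer probe does not.

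Among the 22 further kept probes of the 17 members with more than 1 probe, 18 were lower in BAT knockouts, 10 of them without overlap. Of all features 39.8% were lower, and 8.62% were lower without overlap. For the 16 members set apart on their brightest probe there were 10 further probes, and 7 of these also did not overlap. These probes read the same RNA for genes picked for their lack of overlap, so they are not independent support. The median over all members was -0.30, -0.06, -0.24 and -0.40 on slides 1 to 4, beside 0.46, 0.17, -0.08 and -0.06 over all features. Under quantile normalization and under normexp background correction all 16 were still lower on average, but 12 of them stayed without overlap under quantile normalization (Acss2, Aacs, Pgd and Mogat1 did not). The direction of Acacb, Agpat3 and Scd1 turned under both of these settings. That of Gpd1 and Tkt turned under quantile normalization, and that of Mlxipl and Scd3 under normexp.

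Markers of other cells also averaged higher in BAT knockouts, whereas adipocyte markers overlapped. The 13 adipocyte markers had median levels of 0.39, 0.34, 0.27 and 0.33 in BAT knockouts and 0.10, 0.37, 0.24 and 0.25 in BAT controls. The synthesis members were at 0.26, 0.45, 0.44 and 0.25 in BAT knockouts and at 0.59, 0.91, 0.59 and 0.71 in BAT controls. Their level minus that of the adipocyte markers was -0.14, 0.11, 0.16 and -0.08 in BAT knockouts and 0.49, 0.55, 0.35 and 0.47 in BAT controls, so the groups did not overlap on this scale. Skeletal muscle markers were at 2.49, 5.22, 5.05 and 2.55 in BAT knockouts and 2.43, 3.02, 2.30 and -1.22 in BAT controls (12 of 12 higher on average, 0 past the threshold). Endothelial markers were at 1.31, 1.02, 0.24 and 0.53 in BAT knockouts and 0.02, 0.16, 0.10 and 0.09 in BAT controls (7 of 7 higher, 0 past the threshold). The part of muscle and endothelial RNA in the members' differences was not tested. The spread that limma used was shared with the variable WAT knockouts: standard errors were 0.20 to 0.71 in that fit and 0.12 to 0.37 with BAT alone, where 16 members were lower and 1 higher at an unadjusted p under 0.05, Agpat2 had the smallest adjusted p (0.0638), and again 0 passed; in that fit 9.71% of all features were lower and 14.6% higher at an unadjusted p under 0.05.

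In white fat the list differed by more, but the knockout samples disagreed with each other. Of the 35 members 31 (88.6%) were lower in knockouts on average, against 33.5% of all features, and the median difference was -1.04, beside 0.24 over all features. Yet 0 members passed the threshold (0.0597% of all features did), and 0 were without overlap, against 1.23% of all features without overlap on the lower side. At an unadjusted p under 0.05, 15 members were lower (42.9%, against 6.09% of all features). In WAT knockouts 1-2 and 3, 30 members were below every control; in WAT knockout 4, 28 members were above every control. In 33 members knockout 4 was the highest of the 3. These counts by sample were not made over all features, so they describe the members only.

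Values of the 3 WAT knockout samples are given in the order 1-2, 3 and 4. Srebf1 was 4.41, 4.70 and 6.87 in WAT knockouts and 6.20, 6.02, 5.95 and 5.97 in WAT controls (-0.71 ± 0.42). Mlxipl was 1.17, 1.96 and 4.68 in WAT knockouts and 4.46, 4.34, 4.0 and 4.28 in WAT controls (-1.67 ± 0.57, adjusted p = 0.233). Thrsp was 4.05, 5.12 and 7.84 in WAT knockouts and 7.42, 7.28, 7.06 and 7.02 in WAT controls (-1.52 ± 0.59). For all regulators knockouts 1-2 and 3 were below, and knockout 4 above, the 4 controls.

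The supply genes had the same arrangement of samples. Slc25a1 was 2.31, 3.27 and 6.20 in WAT knockouts and 5.62, 5.21, 5.41 and 5.35 in WAT controls (-1.47 ± 0.62). Acly was 1.97, 2.42 and 4.78 in WAT knockouts and 4.59, 4.53, 4.29 and 4.42 in WAT controls (-1.40 ± 0.49, adjusted p = 0.236). Acss2 was 1.83, 2.60 and 5.34 in WAT knockouts and 5.02, 5.27, 4.88 and 5.12 in WAT controls (-1.81 ± 0.58, adjusted p = 0.227). Knockout 1-2 was the lowest sample in each. Aacs was 3.29, 3.74 and 5.93 in WAT knockouts and 5.05, 5.61, 5.14 and 5.17 in WAT controls (-0.92 ± 0.45). Me1 was 2.85, 3.88 and 6.49 in WAT knockouts and 5.98, 6.37, 5.83 and 5.90 in WAT controls (-1.62 ± 0.61). G6pdx was 3.0, 3.32 and 5.82 in WAT knockouts and 5.08, 5.54, 4.75 and 4.97 in WAT controls (-1.04 ± 0.49). Knockout 4 was above all controls here as well. Pgd, with 3.13, 3.58 and 5.75 in WAT knockouts and 5.35, 5.79, 5.12 and 5.28 in WAT controls (-1.23 ± 0.47), differed in that knockout 4 lay within the range of the controls. Tkt, with 6.29, 6.71 and 8.28 in WAT knockouts and 7.86, 7.52, 7.32 and 7.24 in WAT controls (-0.39 ± 0.37), had knockout 4 above them; its dimmer probe gave -1.25.

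Chain synthesis followed. Acaca was 1.06, 2.11 and 4.79 in WAT knockouts and 3.88, 4.17, 4.04 and 4.04 in WAT controls (-1.38 ± 0.58). Acacb was 2.19, 2.92 and 5.63 in WAT knockouts and 4.26, 4.59, 4.51 and 4.48 in WAT controls (-0.88 ± 0.56). Fasn was 7.76, 8.44 and 9.27 in WAT knockouts and 8.88, 8.73, 8.63 and 8.32 in WAT controls on its brightest probe (-0.15 ± 0.31). Knockout 4 was the highest sample for all these genes, and on the Fasn probe knockout 3 lay among the controls. The dimmer Fasn probe was 2.42, 3.34 and 6.11 in WAT knockouts and 5.33, 5.32, 5.09 and 5.26 in WAT controls, a difference of -1.29.

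The desaturases and elongases showed the same split between knockout samples, except for Elovl1 and Scd3. Scd1 was 6.12, 6.86 and 8.14 in WAT knockouts and 7.75, 7.71, 7.75 and 7.44 in WAT controls (-0.63 ± 0.36), and Scd2 was 3.40, 3.68 and 5.82 in WAT knockouts and 5.93, 5.91, 4.84 and 5.11 in WAT controls (-1.15 ± 0.50). Fads1 was -0.58, -0.08 and 1.75 in WAT knockouts and 1.54, 1.79, 1.19 and 1.30 in WAT controls (-1.09 ± 0.40). Fads2 was -1.25, -0.92 and 1.15 in WAT knockouts and 0.93, 0.65, 0.22 and 0.34 in WAT controls (-0.87 ± 0.44). In these 4 genes knockouts 1-2 and 3 were below all controls. Elovl6 was 2.43, 3.34 and 6.18 in WAT knockouts and 5.45, 4.78, 5.32 and 5.35 in WAT controls (-1.24 ± 0.61). Elovl5 was 2.79, 2.86 and 4.22 in WAT knockouts and 3.32, 3.67, 3.48 and 3.32 in WAT controls (-0.16 ± 0.29). Elovl1 was 3.60, 3.31 and 3.92 in WAT knockouts and 3.70, 3.55, 3.25 and 3.49 in WAT controls (0.11 ± 0.22), with knockout 4 above the controls and the others among them. Scd3 was -4.21 ± 0.61 (n = 3) in WAT knockouts and -4.63 ± 0.37 (n = 4) in WAT controls.

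For glycerol backbone and esterification, Gpd1 was 5.64, 6.33 and 8.31 in WAT knockouts and 7.72, 7.81, 7.49 and 7.37 in WAT controls (-0.84 ± 0.47). Gpam was -3.28, -2.67 and -0.76 in WAT knockouts and -1.91, -1.52, -1.65 and -1.72 in WAT controls (-0.54 ± 0.42). Agpat2 was 0.43, 1.75 and 4.89 in WAT knockouts and 4.09, 4.18, 3.88 and 3.89 in WAT controls (-1.65 ± 0.69). The span between knockouts was widest here for Agpat2, whose knockout 4 was 4.46 above knockout 1-2. Agpat1 was 0.20, 0.34 and 0.96 in WAT knockouts and 0.68, 0.22, 0.08 and 0.03 in WAT controls (0.25 ± 0.30), and Agpat3 was 3.87, 3.96 and 5.92 in WAT knockouts and 5.49, 5.60, 5.03 and 4.99 in WAT controls (-0.69 ± 0.39). Lpin1 was 1.12, 1.65 and 4.04 in WAT knockouts and 2.79, 3.27, 3.40 and 3.26 in WAT controls (-0.91 ± 0.49). Lpin2 ran opposite to the rest, with 2.08, 1.73 and 0.40 in WAT knockouts and 1.27, 0.93, 1.32 and 1.34 in WAT controls (0.19 ± 0.30), knockouts 1-2 and 3 above the controls and knockout 4 below them. Lpin3 was -2.71, -1.98 and -0.84 in WAT knockouts and -0.10, -1.37, -1.67 and -0.99 in WAT controls (-0.81 ± 0.41).

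The terminal steps held the largest average difference in WAT, at Mogat2. Dgat1 was 1.02, 1.73 and 4.33 in WAT knockouts and 3.79, 3.82, 3.28 and 3.42 in WAT controls (-1.22 ± 0.54). Dgat2 was 5.56, 6.55 and 8.61 in WAT knockouts and 8.34, 8.09, 7.82 and 7.61 in WAT controls (-1.06 ± 0.49), and its dimmer probes gave -1.62 and -1.64. Mogat1 was -0.99, -0.06 and 3.01 in WAT knockouts and 2.89, 2.44, 1.83 and 1.97 in WAT controls (-1.63 ± 0.67). Knockout 4 was again the highest sample in each. Mogat2 was -0.71, 0.43 and 3.47 in WAT knockouts and 4.73, 3.63, 2.03 and 3.65 in WAT controls (18.4% of control, -2.44 ± 0.76, adjusted p = 0.218), and control 1, one of the samples with intestinal markers, was the highest. Pnpla3 was 0.44, 0.87 and 2.75 in WAT knockouts and 3.28, 2.49, 3.17 and 2.94 in WAT controls (32.7% of control, -1.61 ± 0.50, adjusted p = 0.218). For Mogat2 and Pnpla3 knockout 4 lay within the range of the controls.

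In the WAT samples the members and the adipocyte markers were low and high in the same knockouts. The synthesis list was at -2.35, -1.80 and 0.38 in WAT knockouts and at -0.16, -0.17, -0.40 and -0.38 in WAT controls. Adipocyte markers were at -2.17, -1.24 and 0.80 in WAT knockouts and 0.18, 0.13, -0.15 and -0.44 in WAT controls (13 of 13 lower on average, 0 past the threshold). The synthesis level minus the adipocyte level was -0.18, -0.56 and -0.42 in WAT knockouts and -0.34, -0.31, -0.25 and 0.06 in WAT controls, so the groups overlapped on this scale. B cell and T cell markers ran the other way; the 8 T cell markers measured were at 4.94, 4.62 and -1.37 in WAT knockouts and -0.21, -0.69, 3.63 and 3.02 in WAT controls. The part of lymphoid RNA in the members' differences was not tested. Within slides the median member difference was -1.77, -2.36, 0.79 and -2.05 on slides 1 to 4; slide 3 held knockout 4, and slides 2 and 4 held the arrays counted as knockout 1-2. Leaving out WAT knockout 4, the sample that differed from the other knockouts, kept only knockouts 1-2 and 3 in that group. These had the highest B cell and the lowest adipocyte marker levels of all samples. In that fit 31 members passed the threshold (30 lower and Lpin2 higher), and the median member difference was -1.90. Of all features 9235 passed as well (15.9% lower and 20.8% higher). Mlxipl then differed by -2.70 ± 0.25, adjusted p = 0.000101, Agpat2 by -2.92 ± 0.30, adjusted p = 0.00013, and Fasn by -0.54 ± 0.27, adjusted p = 0.138. Without WAT knockout 1-2 the median was -0.42 and 0 passed.

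**Figure D3:**
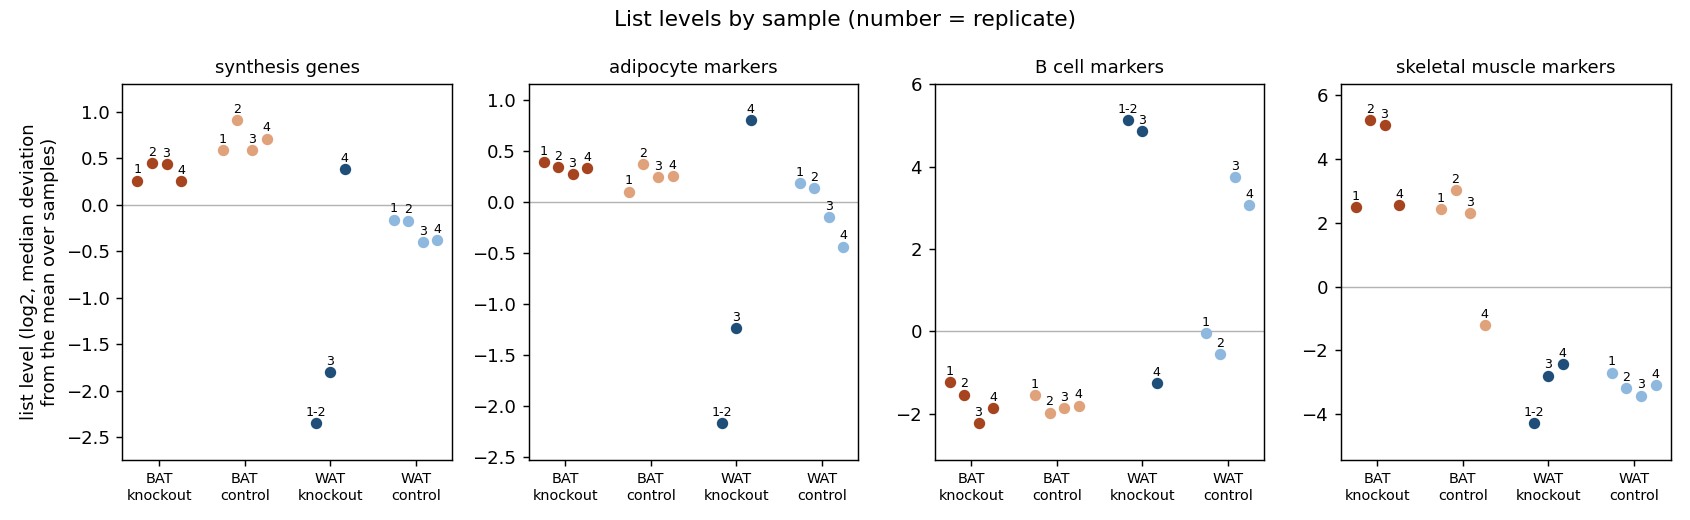
Median log2 deviation of the synthesis members and of the adipocyte, B cell and skeletal muscle markers from each gene's mean, by sample, for BAT knockouts, BAT controls, WAT knockouts and WAT controls. WAT knockouts 1-2 and 3 are low for synthesis and adipocyte genes and high for B cell genes, whereas in BAT the synthesis level of every knockout lies below every control and the adipocyte levels overlap.

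Whether the knockout differences depended on depot was tested as an interaction, BAT difference minus WAT difference. No member passed (0.00398% of all features did), and 2 members were higher at an unadjusted p under 0.05 (5.08% of all features were). The interaction was positive in 32 of 35 members, against 39.8% of all features, with a median of 0.72 beside -0.14 over all features; Scd3, Elovl5 and Lpin2 were negative. The largest were Mogat2 (2.32 ± 1.04, adjusted p = 0.469) and Mlxipl (1.70 ± 0.78, adjusted p = 0.474). Gpam (0.09 ± 0.57) and Scd2 (0.11 ± 0.68) were near 0, with standard errors that leave wide room either way. Without WAT knockout 4, 28 members passed (27 higher, 1 lower), as did 4055 of all features (10.3% higher, 5.85% lower), and the median was 1.51; without WAT knockout 1-2 it was 0.21.

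More members passed the threshold between depots than between genotypes. In controls 14 members passed as higher in BAT (40% of members, against 19.1% of all features) and 4 as lower (11.4%, against 14.3%), with a median of 0.98 beside 0.11 over all features. In knockouts 22 passed as higher (62.9%, against 16.7%) and 2 as lower (5.71%, against 13.9%), with a median of 1.60 beside -0.09. These counts use a spread shared by all groups, although WAT knockouts varied more. For Acly, as an example, the SD was 1.51 in WAT knockouts and 0.13 to 0.41 in the other groups. With knockouts fitted alone 4 members passed as higher and 0 as lower. With controls fitted alone 24 passed as higher and 5 as lower. The shares of all features in these fits of a single genotype are not given here. The counts are therefore not set against the array. In the shared fit 13 members passed as higher and 2 as lower in both genotypes. The share of all features that passed in both was not counted. The depot comparisons in knockouts and in controls share no samples. Their difference is the interaction above, which did not pass for any member.

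**Figure D4:**
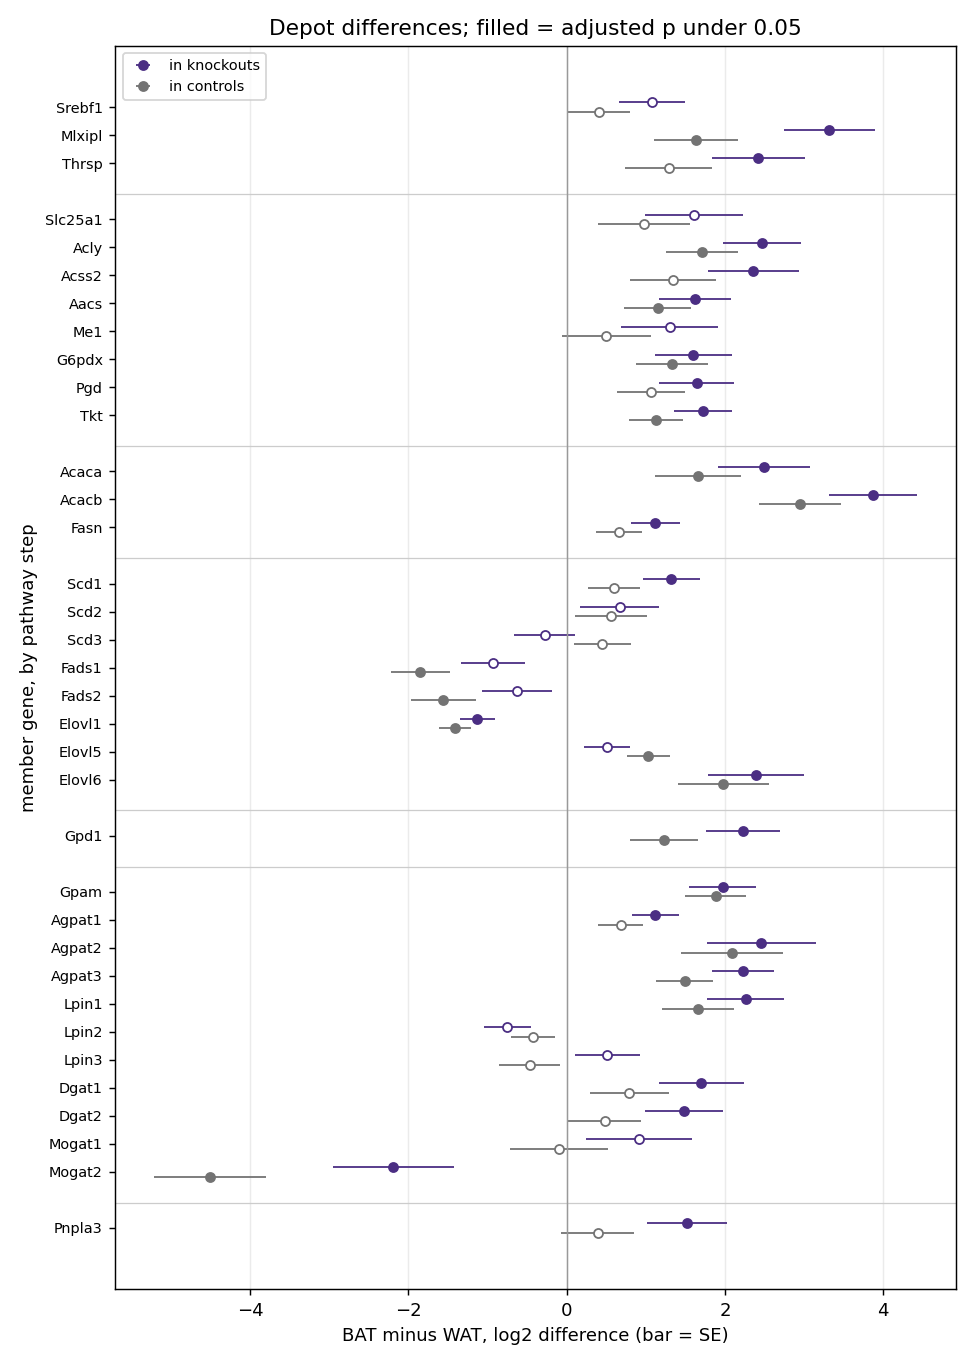
BAT minus WAT difference (log2) with its standard error for each member, in knockouts and in controls; filled points have an adjusted p under 0.05. Acacb has the largest positive difference in both genotypes and Mogat2 the largest negative one, and Fads1 and Fads2 are lower in BAT with filled points in controls only.

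Acacb, whose malonyl-CoA restrains mitochondrial fatty acid uptake, showed the largest difference toward brown fat. It averaged 7.45 ± 0.33 in BAT knockouts and 3.58 ± 1.81 in WAT knockouts (3.87 ± 0.56, adjusted p = 0.000226), with 7.41 ± 0.11 in BAT controls and 4.46 ± 0.14 in WAT controls (2.95 ± 0.52, adjusted p = 0.000644), where errors are SD with n = 3 in WAT knockouts and n = 4 elsewhere. Gpam averaged -0.27 ± 0.22 in BAT knockouts and -2.24 ± 1.31 in WAT knockouts (1.97 ± 0.42), with 0.18 ± 0.03 in BAT controls and -1.70 ± 0.16 in WAT controls (1.88 ± 0.39). Agpat3 averaged 6.81 ± 0.20 in BAT knockouts and 4.59 ± 1.16 in WAT knockouts (2.23 ± 0.39), with 6.77 ± 0.08 in BAT controls and 5.28 ± 0.31 in WAT controls (1.49 ± 0.36). In both genotypes every BAT sample of these genes was above every WAT sample. Of all features, 24.8% were separated in this way in controls and 14.8% in knockouts. Acly averaged 5.53 ± 0.41 in BAT knockouts and 3.06 ± 1.51 in WAT knockouts (2.47 ± 0.49), with 6.17 ± 0.22 in BAT controls and 4.46 ± 0.13 in WAT controls (1.71 ± 0.45). Lpin1 averaged 4.53 ± 0.20 in BAT knockouts and 2.27 ± 1.55 in WAT knockouts (2.26 ± 0.49), with 4.84 ± 0.09 in BAT controls and 3.18 ± 0.27 in WAT controls (1.66 ± 0.45). For both the BAT and WAT samples did not overlap either. These genes, with Elovl1, kept both calls whichever single sample was left out: 6 members in all. How many of all features did so was not counted.

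Further members passed as higher in BAT in both genotypes. Mlxipl differed by 3.32 ± 0.57 in knockouts and 1.63 ± 0.53 in controls, Acaca by 2.49 ± 0.58 and 1.66 ± 0.54, and Elovl6 by 2.39 ± 0.61 and 1.98 ± 0.57. Agpat2 differed by 2.46 ± 0.69 in knockouts and 2.09 ± 0.64 in controls, G6pdx by 1.60 ± 0.49 and 1.33 ± 0.46, and Aacs by 1.62 ± 0.45 and 1.15 ± 0.42. Gpd1 differed by 2.23 ± 0.47 in knockouts and 1.23 ± 0.43 in controls, and Tkt by 1.72 ± 0.37 and 1.13 ± 0.34. Among controls the adjusted p of these 8 genes was between 0.0156 (Elovl6) and 0.0483 (Aacs). Of the 18 calls in controls 11 held whichever sample was left out, as did 12 of the 24 in knockouts. In controls those of Aacs, Gpd1, G6pdx, Acaca, Mlxipl, Agpat2 and Tkt were lost in at least 1 of these 15 fits. Calls that held in every fit were not counted over all features. Elovl5 passed in controls (1.03 ± 0.27, adjusted p = 0.009) and had 0.51 ± 0.29, adjusted p = 0.215 in knockouts.

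In knockouts Acss2 (2.36 ± 0.58), Thrsp (2.42 ± 0.59), Pgd (1.64 ± 0.47) and Dgat1 (1.70 ± 0.54) passed as higher in BAT. So did Pnpla3 (1.52 ± 0.50), Dgat2 (1.48 ± 0.49), Scd1 (1.32 ± 0.36), Fasn (1.12 ± 0.31) and Agpat1 (1.12 ± 0.30). In controls the same genes had 1.34 ± 0.54 for Acss2, 1.29 ± 0.55 for Thrsp, 1.06 ± 0.43 for Pgd and 0.79 ± 0.50 for Dgat1. Pnpla3 had 0.39 ± 0.46, Dgat2 0.48 ± 0.46, Scd1 0.60 ± 0.33, Fasn 0.66 ± 0.29 and Agpat1 0.68 ± 0.28 in controls; none of these 9 passed there. The dimmer probe of Fasn differed by 2.65 in knockouts and 1.68 in controls. Genes without a call in either genotype were Srebf1 (1.08 ± 0.42 in knockouts and 0.41 ± 0.39 in controls), Slc25a1 (1.61 ± 0.62 and 0.98 ± 0.58), Me1 (1.30 ± 0.61 and 0.50 ± 0.56), Scd2 (0.67 ± 0.50 and 0.56 ± 0.46) and Scd3 (-0.28 ± 0.39 and 0.45 ± 0.36). Lpin2 (-0.75 ± 0.30 in knockouts and -0.43 ± 0.28 in controls), Lpin3 (0.51 ± 0.41 and -0.47 ± 0.38) and Mogat1 (0.91 ± 0.67 and -0.10 ± 0.62) had none either.

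Fads1 and Fads2, the polyunsaturated desaturases, were lower in BAT in controls, and Elovl1 and Mogat2 were lower in BAT in both genotypes. Fads1 averaged -0.40 ± 0.20 in BAT controls and 1.45 ± 0.27 in WAT controls (-1.85 ± 0.37, adjusted p = 0.00175), and Fads2 averaged -1.03 ± 0.23 in BAT controls and 0.53 ± 0.32 in WAT controls (-1.56 ± 0.41, adjusted p = 0.00952). In knockouts the differences were -0.93 ± 0.40, adjusted p = 0.0988 for Fads1 and -0.63 ± 0.44, adjusted p = 0.322 for Fads2. Elovl1 averaged 2.48 ± 0.40 in BAT knockouts and 3.61 ± 0.30 in WAT knockouts (-1.13 ± 0.22, adjusted p = 0.00195), with 2.09 ± 0.06 in BAT controls and 3.50 ± 0.19 in WAT controls (-1.41 ± 0.20, adjusted p = 0.000153). Every BAT control lay below every WAT control for these genes, as for 18.5% of all features. Mogat2 averaged -1.13 ± 0.13 in BAT knockouts and 1.06 ± 2.16 in WAT knockouts (-2.19 ± 0.76, adjusted p = 0.0434), with -1.0 ± 0.28 in BAT controls and 3.51 ± 1.11 in WAT controls (-4.51 ± 0.71, adjusted p = 0.000271), so that BAT controls held 4.39% of the WAT level. Without WAT controls 1 and 4, the samples with intestinal markers, the Mogat2 difference in controls was -3.83 (adjusted p = 0.00781). In knockouts its call was lost in 12 of 15 fits that left out 1 sample.

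The size of the brown fat lead, and in controls its excess over all features, depended on the scaling. The size also depended on the WAT samples. Under quantile normalization 5 of 35 members passed as higher in BAT in controls (Acacb, Gpam, Agpat3, Acly and Lpin1) and 4 as lower, beside 18.7% and 16.1% of all features, and the median was 0.37. The share of members that passed as higher was then below that of all features. In controls 7 directions turned or reached 0 under this setting, those of Srebf1, Fasn, Scd1, Scd2, Dgat2, Me1 and Pnpla3. In knockouts 16 members passed as higher and 3 as lower, beside 17% and 16.7% of all features. Within slides the median member difference in controls was 0.89, 0.67, 1.18 and 0.99 on slides 1 to 4. In knockouts it was 2.05, 2.76, 0.08 and 2.44, the low value on the slide of WAT knockout 4. With slide as a block 17 members passed in controls and 21 in knockouts, as did 31.9% and 25.9% of all features.

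Other genes of the same pathways, outside the list, gave 0 calls by genotype in either depot but many between depots. Of 48 further genes 45 were measured; Rpia, Elovl2 and Elovl4 were not. In BAT knockouts 31 of the 45 were lower and 14 higher, 15 lower and 3 higher without overlap (8.62% and 9.34% of all features), with a median of -0.23. There 0 passed, and 9 were lower and 3 higher at an unadjusted p under 0.05 (5.5% and 7.64% of all features). In WAT knockouts 32 were lower and 13 higher, with a median of -0.44. Again 0 passed, and 10 were lower and 3 higher at an unadjusted p under 0.05 (6.09% and 11.8% of all features). Between depots 21 passed as higher in BAT and 6 as lower in controls (19.1% and 14.3% of all features), and 22 and 4 in knockouts (16.7% and 13.9%). In controls the smallest p toward BAT were those of Elovl3, a cold-responsive elongase of brown fat (8.14 ± 0.62), Gpd2, the mitochondrial glycerol 3-phosphate dehydrogenase (3.44 ± 0.29), and Me3, a mitochondrial malic enzyme (4.65 ± 0.41). Toward WAT they were those of Agpat4 (-2.72 ± 0.22), Elovl7 (-4.16 ± 0.52) and Fads3 (-3.22 ± 0.53). In knockouts Gpd2 (4.0 ± 0.31), Elovl3 (7.16 ± 0.67) and the glycerol kinase Gk (3.93 ± 0.39) led toward BAT. Agpat4 (-1.70 ± 0.24), the mitochondrial malic enzyme Me2 (-1.80 ± 0.41) and Elovl7 (-2.25 ± 0.56) led toward WAT. Elovl3, singled out after its values were seen, was 1.07, 2.21, 2.19 and 0.83 in BAT knockouts and 4.26, 4.91, 3.47 and 3.94 in BAT controls. Its knockouts were all below its controls in BAT, without passing the test (-2.57 ± 0.62, adjusted p = 0.182).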

How the data were processed

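RNA of 16 adipose samples (500 ng total RNA each, Cy3, per the labels) was hybridised to 1-colour Agilent whole mouse genome arrays. The images were read with Agilent Feature Extraction 12.0.0.7, per the file headers. Per the file headers, the processed signal is an intensity from which the authors' software took the background and a spatial trend; arrays were not scaled to each other. Median signal and background columns were deposited as unprocessed intensity. Flags were deposited as another kind of value, 0 or 1 for each spot. The authors' value table repeats the processed intensity, averaged over a probe's spots (658784 of 658784 values within a relative tolerance of 1e-04).

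Levels are log2(processed signal) minus the array's 75th percentile. Probes well above background on at least 3 of 4 arrays of at least 1 group were kept, which 66.7% to 83.6% of probes of an array were. The number of arrays limits the precision. RefSeq accessions named 28223 of 41174 probes; the brightest kept probe stood for a gene (16677 genes, with 8430 unnamed probes). With limma 3.58.1 in R 4.3.3 (with the packages data.table, version 1.17.8, and jsonlite, version 2.0.0), 1 mean per group was fitted over 15 samples (11 residual and 2.65 prior degrees of freedom), tested on 2 sides and adjusted by Benjamini-Hochberg over the 25107 features, with a threshold of 0.05. The design text calls the replicates biological without naming animals, and p-values measure the spread between these samples. Promoter sequences come from RefSeq; 30 listed genes had an entry.

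All members are named. Values by sample were given for key enzymes of each step, for members past the threshold in a comparison and for the 5 smallest p in each knockout comparison; other pathway genes were named up to 3 each way by smallest p. The members, lists and tests were chosen with earlier results of these data known. The fit was tested on simulated data in which a gene had the same spread in all groups. The simulation therefore does not cover the wider spread of the WAT knockouts. Alternatives were quantile normalization, normexp correction, probe choices, filters, slide and replicate blocks, fits of 1 depot or genotype, and leaving out samples; the dimmest-probe setting was chosen after seeing the data.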

Additional observations from a re-analysis of the deposited data

Results flagged for a closer look

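Each member was looked at for 1 sample far from the other 3 in groups of 4 samples, by Dixon's 95% critical value for the gap to the nearest sample over the whole range. Of 105 such groups 5 met this, and chance gives about 1 in 20. Srebf1 was 6.53 in BAT knockout 2, against 6.36 to 6.38 in the other BAT knockouts. Lpin1 was 4.83 in BAT knockout 2, against 4.40 to 4.45 in the others. Dgat2 was 8.31 in BAT control 1, against 8.47 to 8.51 in the other BAT controls. Scd1 was 7.44 in WAT control 4, against 7.71 to 7.75 in the other WAT controls. Lpin2 was 0.93 in WAT control 2, against 1.27 to 1.34 in the others.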

How the results depend on the processing

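In BAT knockouts 0 members passed under every alternative, the median stayed between -0.40 and -0.27, and 12 to 19 members were lower without overlap (16 or 17 when 1 sample was left out); the 19 were without BAT knockouts 1 and 2, where 18.9% of all features were lower without overlap. In WAT knockouts 0 to 31 passed and the median was between -1.90 and -0.42 when 1 sample was left out; 31 passed without knockout 4 and 0 otherwise. The interaction gave 0 to 28 calls and medians of 0.21 to 1.51, with 28 without WAT knockout 4. For BAT against WAT in controls 18 members passed, against 9 (median 0.37) with quantile normalization, 6 without WAT controls 1 and 4, 29 with controls alone and 11 to 28 when 1 sample was left out (11 without WAT control 3 or 4, 28 without WAT knockout 4; medians 0.92 to 1.03). In knockouts 24 passed, against 14 without BAT knockouts 1 and 2, 4 with knockouts alone and 12 to 31 when 1 sample was left out (12 without WAT knockout 3, 14 without 1-2, 31 without 4; medians 1.04 to 2.34). Why the counts moved was not tested, except that fewer samples were fitted. Over all features the counts ranged between 0 and 84 in BAT knockouts (main 4), 0 and 9235 in WAT knockouts (15), 0 and 4055 in the interaction (1), 5272 and 10775 in controls (8381) and 2990 and 11456 in knockouts (7683). No direction of a named call turned. With the replicate number as a block 0 members passed in either knockout comparison, 16 in controls and 22 in knockouts between depots. Same-numbered samples deviated together with correlations of -0.48 to 0.27. Since samples also differed in cell content, these correlations cannot show whether a shared number marks the same animal. Limits are the 3 WAT knockout samples and the few arrays.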
